A study of Arabidopsis thaliana with 16 samples.

Results

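Spliced antisense lncRNAs are here newly assembled long non-coding transcripts of 2 or more exons that lie on the strand opposite annotated genes of Arabidopsis thaliana. They were taken from the deposited coordinate table as the transcripts whose location is antisense and whose exon number is at least 2, and that also have a row in the expression table. The rule gave 445 transcripts from 360 loci, of 1161 newly assembled lncRNAs and 36817 transcripts with expression values in all; 9 further transcripts met it but had no expression row. The other antisense lncRNAs of the assembly were 513 transcripts of a single exon, and 147 of its spliced lncRNAs lay elsewhere.

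The study asked which lncRNAs respond to phosphate (Pi) starvation. Wild-type Col-0 seedlings of 10 days were grown either without Pi (P-, where 0.65 mM K2SO4 replaced 1.25 mM KH2PO4) or with it (P+), and roots and shoots were collected separately. Their RNA was divided into poly(A)+ RNA, bound by oligo(dT) beads, and poly(A)- RNA, left in the supernatant after removal of ribosomal RNA. The 8 groups are thus P- and P+ roots and P- and P+ shoots in each fraction, with 2 libraries per group and 16 in all. The study describes the replicates as independent, but how many plants made up a library is not given in the sources used here, and the p-values measure the spread between these libraries. All plants carried the same genotype and were collected at 1 age, so no genetic change or time course bears on these values.

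Antisense lncRNAs are transcribed across a gene from its opposite strand, and some are known to act on the gene they overlap through chromatin, transcription or pairing with its mRNA. Because an antisense RNA and its gene share the same bases, only a library that keeps the strand of each read can tell them apart. Most plant introns begin with GT and end with AG, whereas introns that begin with AT and end with AC are rare and are mostly removed by the minor spliceosome. Under Pi starvation Arabidopsis roots form more root hairs and release phosphatases, and both organs induce Pi transporters and replace phospholipids.

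The labels gave a strand setting of unstranded to replicate 1 of roots and replicate 2 of shoots, and of first-strand to the other replicates, while the protocol names a strand-specific kit for all. The root columns of the expression table are numbered 2 and 3 and not 1 and 2, so root values are given here by column (library 2, library 3). For 93 of the lncRNAs the deposited tables of called transcripts also give poly(A)+ root values by replicate, and in 93 of 93 the value of replicate 1 (unstranded) was that of library 2 and the value of replicate 2 (first-strand) that of library 3, in P- and in P+. If the label holds, reads of a gene and of its antisense partner cannot be told apart in the unstranded libraries. This would touch their values for every lncRNA with a gene opposite. Whether the libraries so labelled kept the strand was not tested. Depth was unknown, because the table holds only FPKM, a level scaled to transcript length and library size. In bulk tissue, fewer cells of a type and less RNA per cell cannot be told apart. The 11 Pi starvation marker genes fixed for this report, among them IPS1, SPX1 and PHT1;4, were higher in P- at an adjusted p of 0.05 in 11 of 11 cases in poly(A)+ roots and in poly(A)+ shoots. The summed level of 6 root marker genes was 652 to 986 FPKM in poly(A)+ roots and 2.08 to 41.7 FPKM in poly(A)+ shoots, and that of 6 shoot marker genes was 120.0 to 508 FPKM in roots and 11300 to 15700 FPKM in shoots.

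The lncRNAs were mostly of 2 exons and lay over the exons of a coding gene. Of 445 transcripts, 332 had 2 exons, 42 had 3, 28 had 4 and 43 had 5 or more, up to 14. Their length ran from 271 to 5453 bases with a median of 1361 bases, against 1005 bases for single-exon antisense lncRNAs. They lay on chromosomes 1 to 5 with 99, 96, 103, 45 and 102 transcripts. A coding gene stood opposite 419 of them, 351 genes in all, and 47 had more than 1 gene opposite. The lncRNA overlapped exons of the gene in 416 cases and its coding sequence in 408, and the median transcript had 90.8% of its length over exons of the gene. The other 26 had no coding gene opposite in the annotation, and lay for example over a pseudogene.

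The introns of these lncRNAs differed from those of other transcripts in their ends. Reading the genome (TAIR10) at their 592 distinct introns, 471 (79.6%) had GT-AG ends, 88 (14.9%) AT-AC, 24 (4.05%) GC-AG and 9 other ends. Among 348 introns of other newly assembled lncRNAs, 1 (0.287%) was AT-AC and 96.3% were GT-AG, and among 131152 introns of coding genes 149 (0.114%) were AT-AC and 98.7% GT-AG. The rule that chose the transcripts did not use the ends of the introns. The AT-AC share was higher in the spliced antisense class than in both other sets in these assemblies. Most of these AT-AC introns lay opposite an intron of a gene, as described next, which needs a gene on the other strand. The other newly assembled lncRNAs with introns were mostly not antisense, so the comparison with them is uneven.

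Most AT-AC introns lay almost exactly opposite a gene intron read from the other direction. An intron is called mirrored here when both of its ends are within 10 bases of the ends of 1 intron of the opposite gene. There were 86 mirrored introns, in 88 lncRNAs of 80 loci, and 62 of the 86 were AT-AC, 13 GT-AG and 10 GC-AG. The gene's own intron was GT-AG in 85 of the 86. Of the 62 AT-AC introns, 57 had the same length as the gene's intron, and 42 of these were displaced by 4 bases downstream on the gene's strand. In all, 76 of the 86 had equal length, and for 33 of the 76 the joined exons of the lncRNA, read on the gene's strand, carried the same letters as the joined exons of the gene. A further 26 differed at 1 base and 16 at 2 bases, and 1 at more than 2. Mirrored AT-AC introns had a median length of 113 bases (72 to 1664), against 405.5 bases (85 to 12151) for AT-AC introns without a mirrored partner.

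The windows around 3 such introns show the displacement, with the gene's intron and the lncRNA's intron drawn on the same bases. All lines are TAIR10 sequence on the strand of the gene, 5′ to 3′, and the capitals mark the first 2 bases of the intron in each line ending in start and the last 2 bases in each line ending in end. Read on the lncRNA's own strand, an intron that runs from GT to AT on the gene's strand begins with AT and ends with AC. AT1G01020 encodes ARV1, a protein of sterol and lipid balance, and the windows are at chr1:7370-7393 and chr1:7223-7246 on the minus strand around an intron of 151 bases.
ARV1, gene intron start: tgcgatgttgGTatgttgtagctt
TCONS_00000003, lncRNA intron start: tgcgatgttggtatGTtgtagctt
ARV1, gene intron end: ctttgttattacAGgtatgggaat
TCONS_00000003, lncRNA intron end: ctttgttattacaggtATgggaat
CBL9 (AT5G47100) is a calcineurin B-like calcium sensor, and its windows are at chr5:19130033-19130056 and chr5:19129950-19129973 on the minus strand around an intron of 87 bases.
CBL9, gene intron start: cgtatctcagGTatgtctccttac
TCONS_00051669, lncRNA intron start: cgtatctcaggtatGTctccttac
CBL9, gene intron end: aaactcaattttAGggatataacg
TCONS_00051669, lncRNA intron end: aaactcaattttagggATataacg
PSK4 (AT3G49780) encodes a precursor of phytosulfokine, a peptide hormone that promotes cell growth, and its windows are at chr3:18465857-18465880 and chr3:18466118-18466141 on the plus strand around an intron of 265 bases.
PSK4, gene intron start: ctccgtcaagGTtcgttaacttct
TCONS_00036161, lncRNA intron start: ctccGTcaaggttcgttaacttct
PSK4, gene intron end: tatattatgtatAGgaaattgaag
TCONS_00036161, lncRNA intron end: tatattATgtataggaaattgaag
At ARV1 and CBL9 the lncRNA's intron was displaced by 4 bases downstream, and at PSK4 it was displaced by 6 bases upstream (-6). In each case a GT stands a few bases from the gene's own GT, and an AT at the same distance from the gene's AG. TCONS_00007037, opposite the cinnamyl alcohol dehydrogenase gene CAD1 (AT1G72680), had 2 AT-AC introns of 89 and 85 bases, each displaced by 4 bases from a CAD1 intron.

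**Figure D1:**
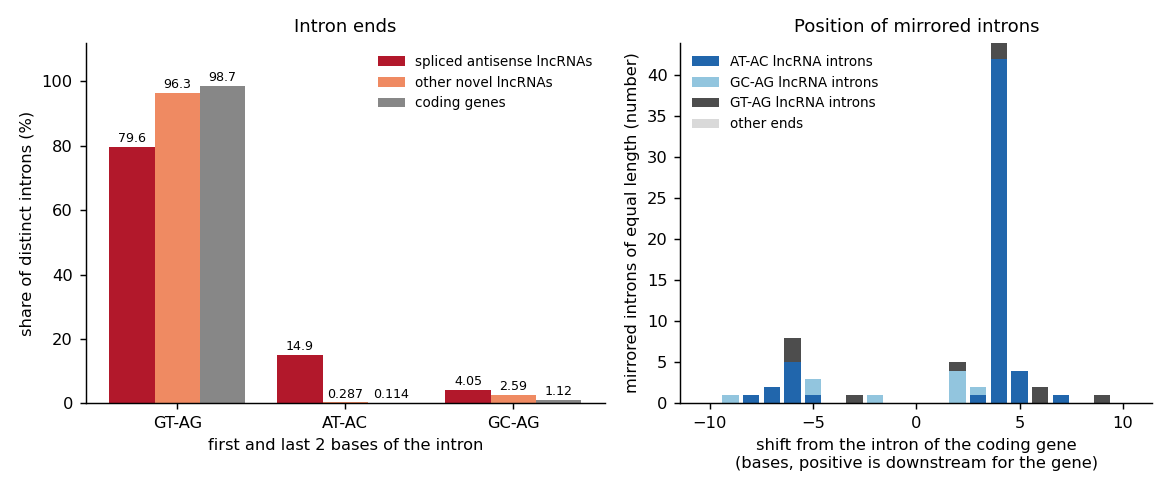
Left, the share of introns by their end bases, in percent, in spliced antisense lncRNAs, other newly assembled lncRNAs and coding genes; right, the number of mirrored introns of equal length by their displacement in bases on the gene's strand. AT-AC introns made up 14.9% of the antisense lncRNA introns, against 0.287% and 0.114% in the other sets, and 44 of the 76 equal-length introns were displaced by 4 bases.

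The lncRNAs were present at low to moderate levels. Averaged over the 16 libraries, the median transcript had 3.58 FPKM, against 6.71 FPKM for single-exon antisense lncRNAs, 1.72 FPKM for other newly assembled spliced lncRNAs and 6.99 FPKM for coding transcripts. A mean of at least 1 FPKM was reached by 379 of 445 (85.2%), at least 10 FPKM by 81 and at least 100 FPKM by 13. Transcripts with a mirrored intron had a median of 4.6 FPKM, against 3.36 FPKM for those without. Per library, between 165 and 350 of the 445 had at least 1 FPKM, the fewest in P+ poly(A)- shoots and the most in P+ poly(A)+ roots.

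Some members were very abundant. TCONS_00000755, opposite the tetratricopeptide repeat gene AT1G07590, had 2690 and 1270 FPKM in P- and 2460 and 1800 FPKM in P+ poly(A)+ roots, and 331 and 292 FPKM in P- and 129 and 211 FPKM in P+ poly(A)+ shoots. Every root library was above every shoot library. TCONS_00022196, opposite the cyclophilin gene ROC3, had 898 and 726 FPKM in P- and 990.0 and 974 FPKM in P+ poly(A)+ roots, and 773 and 423 FPKM in P- and 441 and 313 FPKM in P+ poly(A)+ shoots. Its values in poly(A)- roots were 465 and 16.4 FPKM in P- and 480.0 and 574 FPKM in P+, so that only the P- libraries of that fraction lay far apart. The most abundant transcript with a mirrored intron, TCONS_00036174 opposite LBD38, a repressor of anthocyanin synthesis that responds to nitrate, had 490.0 and 330.0 FPKM in P- and 76.8 and 938 FPKM in P+ poly(A)+ roots, and in P+ poly(A)- roots it had 0.0234 FPKM in library 2 and 985 FPKM in library 3.

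Such splits between the 2 libraries of a group were common. A transcript with under 0.1 FPKM in one library and at least 10 FPKM in the other library of the same group was counted as split, and 85 of 445 (19.1%) were split in at least 1 of the 8 groups. The share was 28 of 88 (31.8%) with a mirrored intron and 57 of 357 (16.0%) without, 27.3% for single-exon antisense lncRNAs and 7.83% for coding transcripts. These shares also follow how many transcripts of a set reach 10 FPKM. Among those that did in P+ poly(A)+ roots, 10.4% of the lncRNAs, 10.5% of single-exon antisense lncRNAs and 1.82% of coding transcripts were split. By that share splits were more frequent with a mirrored intron than without, except in P- poly(A)- roots (9.68% against 12.3%). C/VIF1, an inhibitor of fructosidases, gives an example. TCONS_00004512, opposite it, had 179 and 136 FPKM in P- poly(A)+ roots and 0.000196 and 163 FPKM in P+ poly(A)+ roots. Splits were most frequent in poly(A)- shoots, where 27 of 110 (24.5%) transcripts that reached 10 FPKM were split in P- and 29 of 87 (33.3%) in P+. In poly(A)+ shoots they were 6 of 73 in P- and 4 of 72 in P+.

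The response to Pi was tested on log2(FPKM + 1) with limma across all transcripts that averaged at least 1 FPKM in a fraction, and a log2 difference on this scale understates changes of low transcripts. Transcripts were called by the study's rule, a fold of at least 2 with an unadjusted p under 0.05, and separately at a Benjamini-Hochberg adjusted p of 0.05. In poly(A)+ RNA 398 of the 445 lncRNAs passed the filter and 47 did not.

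In P- roots few antisense lncRNAs stood out from P+ roots. By the study's rule 19 were higher and 29 lower in P- roots, 48 in all (12.1% of 398), where 12% of all 27395 transcripts tested were called, 6.5% higher and 5.5% lower. At the adjusted p, 0 were higher and 2 were lower by limma, where 1.18% of all transcripts passed, 0.715% higher and 0.464% lower. An unadjusted p under 0.05 was reached by 50 of them. The median log2 difference was -0.129 for the lncRNAs and 0.0629 for all transcripts. Of those with a mirrored intron, 6 of 80 (7.5%) were called by the study's rule.

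The lncRNA opposite PSK4, which the study lists among candidate targets of the Pi-responsive microRNA miR399, fell in P- roots. TCONS_00036161, whose mirrored intron is shown above, had 5.29 and 3.93 FPKM in P- and 110.0 and 37.2 FPKM in P+ poly(A)+ roots, a log2 difference of -3.55 ± 0.52 (SE, adjusted p = 0.0326, limma). PSK4 itself, summed over its transcripts, had 159 and 110.0 FPKM in P- and 670.0 and 1450 FPKM in P+ roots, with a log2 difference of -2.89 ± 0.48 (adjusted p = 0.0188). The libraries of both RNAs did not overlap between P- and P+. In poly(A)+ shoots TCONS_00036161 had 0.465 and 0.662 FPKM in P- and 6.36 and 5.34 FPKM in P+ (log2 -2.13, adjusted p = 0.0948), and PSK4 had a log2 difference of -2.03 (adjusted p = 0.0453). The root and shoot differences of the lncRNA did not differ beyond error (log2 -1.42, adjusted p = 0.397 for the difference).

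The other lncRNA that fell in P- roots lies opposite AT3G51325, a RING/U-box protein gene. TCONS_00036338 had 0.337 and 0.369 FPKM in P- and 12.1 and 5.61 FPKM in P+ poly(A)+ roots (log2 -2.78 ± 0.45, adjusted p = 0.044). AT3G51325 had a log2 difference of -1.97 with an adjusted p of 0.252. In poly(A)+ shoots the lncRNA had 0.603 and 0.887 FPKM in P- and 3.58 and 4.14 FPKM in P+, again without overlap between the groups.

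Further root members passed the study's rule but not the adjusted p. TCONS_00051669, opposite CBL9, was near 0 in P- roots (8.07e-08 and 5.79e-12 FPKM) and had 124 and 12.9 FPKM in P+ roots (log2 -5.38 ± 1.21, adjusted p = 0.0999), and CBL9 fell by 1.25 ± 0.27 on the log2 scale in P- roots (adjusted p = 0.0465). TCONS_00030593, opposite the plasma membrane aquaporin PIP2A, had 32.7 and 3.15 FPKM in P- and 783 and 55.6 FPKM in P+ roots (log2 -4.15 ± 1.35, adjusted p = 0.21), and PIP2A had 459 and 449 FPKM in P- and 1360 and 1130 FPKM in P+ roots (log2 -1.45, adjusted p = 0.0222). The groups did not overlap for either lncRNA, but the P+ libraries of each lay far apart. TCONS_00036022, opposite the sphingolipid synthesis gene SPT1, had 4.59e-09 and 0.461 FPKM in P- and 50.8 and 1.43 FPKM in P+ roots (log2 -3.22, adjusted p = 0.27), where SPT1 differed by 0.01.

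The tables of called transcripts show how the P+ root values divide by strand setting. TCONS_00030593 had 783 FPKM in replicate 1 of P+ roots, labelled unstranded, and 55.6 FPKM in replicate 2, labelled first-strand. TCONS_00051669 had 124 and 12.9 FPKM and TCONS_00036161 had 110.0 and 37.2 FPKM in the same replicates. In each of these the unstranded library was the higher one. Other lncRNAs went the other way in the same replicates of P+ roots, such as TCONS_00057453 (1.55 and 90.8 FPKM) and TCONS_00031133 (50.3 and 142 FPKM). Over all 445 lncRNAs the median was 4.73 FPKM in library 2 and 2.71 FPKM in library 3 of P+ poly(A)+ roots. At least 10 FPKM was reached by 140 in library 2 and by 82 in library 3. In P- poly(A)+ roots the medians were 3.11 and 3.61 FPKM. The part of the strand setting, or of this shift between libraries, in the root differences was not tested.

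Of the members with higher values in P- roots none passed the adjusted p. TCONS_00049124, opposite the heme-binding protein gene HBP5, had 39.7 and 44.3 FPKM in P- and 1.2e-09 and 0.684 FPKM in P+ roots (log2 5.05 ± 1.29, adjusted p = 0.137). TCONS_00052160, opposite EYE, a component of the Golgi tethering complex, had 6.16 and 19.5 FPKM in P- and 8.24e-11 and 0.405 FPKM in P+ roots (log2 3.35, adjusted p = 0.221). Its intron is a mirrored AT-AC intron. TCONS_00046156 (opposite the substrate carrier gene SHS1), TCONS_00005496 (opposite the chitinase family gene AT1G56680) and TCONS_00032012 (opposite the pyruvate kinase family gene AT3G04050) had log2 differences of 3.23, 3.02 and 2.88, without overlap between P- and P+ roots.

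The root counts depended on 1 library in particular. Values of library 3 of P+ poly(A)+ roots matched the first-strand replicate in the 93 lncRNAs compared. Without it many more lncRNAs were called by the study's rule and at the adjusted p, and so were many more of all transcripts. Such a fit rests on 1 library in that group. Without library 2 of the same group the counts of lncRNAs hardly changed. TCONS_00036161 passed the adjusted p without either P+ root library and TCONS_00036338 without library 3 of P+ roots. Each lost its call when any other poly(A)+ library was left out, shoot libraries included.

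In P- shoots similar numbers of antisense lncRNAs were higher and lower by the study's rule. By the study's rule 19 were higher and 22 lower in P- poly(A)+ shoots, 41 in all (10.3% of 398), where 12.9% of all transcripts were called, 7.55% higher and 5.4% lower. At the adjusted p 1 was higher and 4 were lower, where 1.92% of all transcripts passed, 1.19% higher and 0.734% lower. With 0.1 in place of 1 FPKM added before the log, 27 were higher and 17 lower by the study's rule (11.1%, where 14.1% of all transcripts were called). The median log2 difference was 0.00629, against 0.11 for all transcripts. In shoots the replicate number coincides with the strand setting. With that number as a block in the shoot libraries alone, 12 of 298 lncRNAs were higher and 14 lower at the adjusted p. These 26 made up 8.72%, where 15.8% of all transcripts passed. Without the block in the same libraries 2 were higher and 13 lower (5.03%, where 9.83% of all transcripts passed). When any 1 of the 4 shoot poly(A)+ libraries was left out, the members lost their adjusted calls, as nearly all transcripts did. More members passed the adjusted p when either P+ root library was left out, and so did more of all transcripts. Without library 2 of P+ shoots fewer members, and fewer of all transcripts, passed the study's rule.

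The lncRNA that rose in P- shoots lies opposite AT3G54580, a proline-rich extensin, one of the structural glycoproteins of the cell wall. TCONS_00030708 had 15.0 and 26.1 FPKM in P- and 0.0653 and 0.00269 FPKM in P+ poly(A)+ shoots (log2 4.33 ± 0.33, adjusted p = 0.00696). AT3G54580 had 12.5 and 28.4 FPKM in P- and 0.0893 and 0.209 FPKM in P+ shoots (log2 4.12, adjusted p = 0.00406), so that the lncRNA and the gene were at about the same level. In poly(A)+ roots TCONS_00030708 had 317 and 376 FPKM in P- and 147 and 100.0 FPKM in P+ (log2 1.5, adjusted p = 0.099). The difference between its root and shoot responses was -2.84 (adjusted p = 0.072), and for the gene it was -3.48 (adjusted p = 0.0369).

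A second extensin showed similar values. TCONS_00057454, opposite EXT13 (AT5G35190), had 2.52 and 16.3 FPKM in P- and 0.423 and 0.218 FPKM in P+ shoots (log2 2.57, adjusted p = 0.119), and EXT13 rose in P- shoots by 2.72 (adjusted p = 0.00687). Both extensin pairs were far higher in roots than in shoots. The summed level of the 6 root markers was 28.3 to 41.7 FPKM in P- poly(A)+ shoots and 2.08 to 3.33 FPKM in P+ poly(A)+ shoots, 4 of the 6 higher at the adjusted p. The part of root marker RNA in the extensin values was not tested.

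TCONS_00025826 lies opposite WRKY45, a transcription factor known to activate a Pi transporter gene under starvation. It had 15.6 and 9.78 FPKM in P- and 3.34 and 0.349 FPKM in P+ poly(A)+ shoots (log2 2.47, adjusted p = 0.0968). WRKY45 rose in P- shoots, with 37.9 and 39.8 FPKM in P- and 7.09 and 7.01 FPKM in P+ (log2 2.31, adjusted p = 0.00773). In poly(A)- roots the lncRNA had 16.0 and 25.4 FPKM in P- and 0.795 and 8.41 FPKM in P+ (log2 2.37, adjusted p = 0.548), so the P- libraries were the higher ones there too. TCONS_00017997, opposite the galactosyl transferase gene AT2G22900, and TCONS_00006998, opposite the rRNA processing gene PUM23, had log2 differences of 2.11 and 1.98 in shoots at adjusted p of 0.175 and 0.22 (limma).

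Of the 4 lncRNAs that fell in P- shoots, the clearest was TCONS_00009494, opposite the defensin-like gene AT1G13609. It was listed at 0 in both P- libraries and had 21.0 and 22.7 FPKM in P+ poly(A)+ shoots (adjusted p = 0.00766, limma). AT1G13609 was listed at 0 in all poly(A)+ shoot libraries but 1, library 2 of P+, where it had 5.49 FPKM. In roots the lncRNA was listed at 0 in P- and had 1.35 and 1.0 FPKM in P+.

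TCONS_00045534, opposite the methyltransferase gene AT4G26600, had 0.644 and 0.819 FPKM in P- and 24.1 and 20.0 FPKM in P+ poly(A)+ shoots (log2 -3.73 ± 0.51, adjusted p = 0.0232). The gene had a log2 difference of -1.23 (adjusted p = 0.06). TCONS_00027947, opposite AT3G20340, had 2.5 and 8.89 FPKM in P- and 49.4 and 47.4 FPKM in P+ shoots (log2 -3.07 ± 0.48, adjusted p = 0.033), and AT3G20340 had a log2 difference of -0.96 (adjusted p = 0.266). For these members the P- libraries lay well under the P+ libraries. The fourth was TCONS_00016765 of the 13-transcript locus XLOC_008781, described below with its locus.

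**Figure D2:**
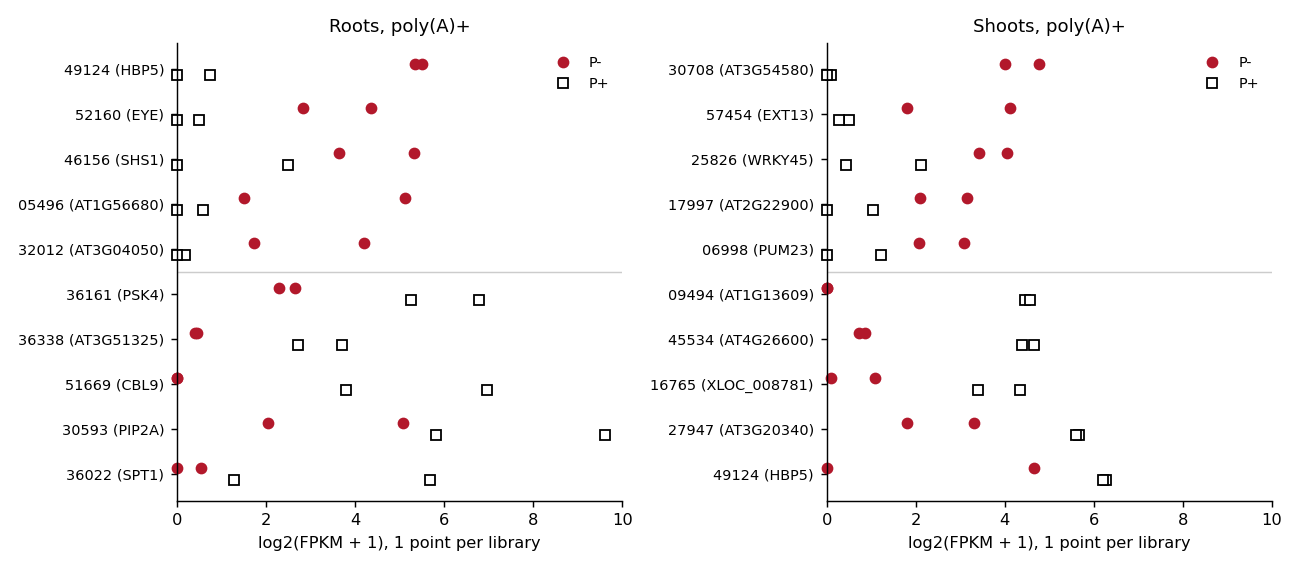
Levels on log2(FPKM + 1) of the 10 lncRNAs named for poly(A)+ roots and the 10 named for poly(A)+ shoots, 1 point per library, P- filled and P+ open. The P- and P+ points of every lncRNA shown do not overlap, which the rule that chose them required, and the adjusted p passed 0.05 for 2 in roots and 5 in shoots.

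The response differed between roots and shoots for no lncRNA at the adjusted p (0 of 398 by limma, with 35 at an unadjusted p under 0.05). Of all transcripts 0.183% passed, 0.0986% with a higher and 0.084% with a lower response in roots. By the study's rule 17 had a higher and 18 a lower response in roots than in shoots, 35 in all (8.79%), where 14.9% of all transcripts were called, 6.76% higher and 8.16% lower. Without library 3 of P+ roots more lncRNAs were called by either rule, and so were more of all transcripts. The most different was TCONS_00049124, opposite HBP5. Its root values, given above, were higher in P-, whereas in poly(A)+ shoots it had 24.2 and 0.000169 FPKM in P- and 76.0 and 72.9 FPKM in P+. The difference of the responses was 8.96 ± 1.83 on the log2 scale (adjusted p = 0.102), and for HBP5 itself it was 1.47 (adjusted p = 0.174).

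In poly(A)- RNA 334 of the 445 lncRNAs passed the filter and 111 did not. In P- roots 8 were higher and 8 lower by the study's rule (4.79%), where 6.7% of all transcripts were called, 3.11% higher and 3.6% lower. In P- shoots 25 were higher and 12 lower (11.1%), where 11.9% were called, 7.41% higher and 4.53% lower. At the adjusted p limma called 0 lncRNAs in roots and 0 in shoots, and 16 and 37 had an unadjusted p under 0.05. Of all transcripts 0.0291% passed in roots, all of them higher in P-, and 0.269% in shoots, 0.211% higher and 0.0582% lower. The values below are therefore descriptions of libraries that did not overlap.

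In P- poly(A)- shoots the lncRNA opposite CLV1, the receptor kinase that limits the stem cell pool of the shoot meristem, had the lowest adjusted p of the members. TCONS_00007352 had 28.7 and 15.8 FPKM in P- and 0.399 and 0.436 FPKM in P+ (log2 3.98 ± 0.57, adjusted p = 0.0578), and CLV1 had 59.9 and 82.3 FPKM in P- and 23.0 and 23.3 FPKM in P+ (log2 1.56, adjusted p = 0.0819). In poly(A)+ shoots the lncRNA had 22.0 and 13.2 FPKM in P- and 6.68 and 1.79 FPKM in P+. Both fractions thus had the P- libraries above the P+ libraries in shoots, while in poly(A)+ roots the values were 11.4 and 9.87 FPKM in P- and 11.4 and 6.1 FPKM in P+.

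Other members were near 0 in 1 condition of poly(A)- RNA. TCONS_00025980, opposite the homeodomain gene HDG8, had 13.6 and 8.73 FPKM in P- poly(A)- shoots and was listed at 0 in both P+ libraries (adjusted p = 0.105). TCONS_00026007, opposite the RING/U-box gene AT3G03550, had 16.4 and 15.2 FPKM in P- and 0.0503 and 0.0361 FPKM in P+ poly(A)- shoots (log2 4.01, adjusted p = 0.234). TCONS_00002061, opposite the plasmodesmata callose-binding gene PDCB3, had 0 and 5.14e-07 FPKM in P- and 15.0 and 8.78 FPKM in P+ poly(A)- shoots (log2 -3.64, adjusted p = 0.0703). These lncRNAs were at most 0.0503 FPKM in the lower condition of those shoots. In poly(A)- roots TCONS_00025245, opposite AT2G43540, had 3.76e-07 and 0.174 FPKM in P- and 13.4 and 12.4 FPKM in P+ (log2 -3.68, adjusted p = 0.108). TCONS_00006852, opposite AT1G70880, had 1.18e-06 and 2.98e-07 FPKM in P- and 9.63 and 9.11 FPKM in P+ (log2 -3.37, adjusted p = 0.113), whereas its poly(A)+ roots had 10.9 and 7.52 FPKM in P- and 30.4 and 23.0 FPKM in P+.

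The remaining members named for poly(A)- roots had smaller or less even differences. TCONS_00030706, also opposite the extensin AT3G54580, TCONS_00003381, opposite the flowering regulator SUF4, and TCONS_00053987, opposite the salicylic acid synthesis gene EPS1, had log2 differences of 2.46, 2.26 and 1.83. TCONS_00052655 (opposite the gamete gene GEX1), TCONS_00059267 (opposite the TraB family gene AT5G52030) and TCONS_00060209 (opposite the kinase gene AT5G61570) had -3.1, -2.96 and -2.67. All their adjusted p were at least 0.368. For poly(A)- shoots TCONS_00033733 (opposite AT3G18560) and TCONS_00025735 (opposite MTO1, of methionine synthesis) had 3.7 and 3.55, and TCONS_00015036 (opposite the thaumatin family gene AT1G73620) and TCONS_00046156 had -4.34 and -3.7. TCONS_00060060, opposite GAF1, was listed at 0 in both P- libraries and had 8.84 and 6.19 FPKM in P+ poly(A)- shoots (adjusted p = 0.115). TCONS_00025735 had 613 and 17.0 FPKM in its 2 P- libraries, against 3.65 and 16.2 FPKM in P+, so its P- libraries barely stood apart from P+.

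More of these lncRNAs passed the adjusted p for tissue than for Pi, and so did more of all transcripts. The tissue contrast averaged P- and P+ and so used more libraries on each side than a Pi contrast. In poly(A)+ RNA 105 were higher and 25 lower in roots than in shoots at the adjusted p, 130 in all (32.7% of 398), where 41.6% of all transcripts passed, 26.2% higher and 15.4% lower. By the study's rule they were 123 and 31 (38.7%, where 36.8% of all transcripts were called, 22.5% higher and 14.3% lower). The median log2 difference was 0.818 for the lncRNAs and 0.314 for all transcripts, and 0.962 for those with a mirrored intron. In poly(A)- RNA 41 were higher and 12 lower in roots at the adjusted p (15.9% of 334, where 30.3% of all transcripts passed, 19.7% higher and 10.6% lower), with a median of 0.32 against 0.325 for all transcripts.

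Among the lncRNAs higher in roots were those opposite the extensins. TCONS_00030708 averaged 235 FPKM in roots and 10.3 FPKM in shoots (log2 5.47 ± 0.24, adjusted p = 9.12e-06, limma), and TCONS_00057454, opposite EXT13, averaged 83.2 FPKM and 4.86 FPKM (log2 4.64, adjusted p = 0.000353). TCONS_00016306, opposite AT2G04800 and with a mirrored AT-AC intron, averaged 104 FPKM in roots and 1.74 FPKM in shoots (adjusted p = 0.00197). It was listed at 0 in all 4 poly(A)- shoot libraries and had 8.12 to 52.7 FPKM in poly(A)- roots. TCONS_00051899, with no coding gene opposite, had 89.4 and 52.6 FPKM in P- and 30.3 and 15.7 FPKM in P+ roots, against 0.757 and 7.14 FPKM in P- shoots and 0 in both libraries of P+ shoots (log2 4.36, adjusted p = 0.000568).

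One root member was uneven within a group. TCONS_00031532, opposite the methyltransferase gene OMTF3, had 171 and 2.98e-07 FPKM in P- and 222 and 82.3 FPKM in P+ poly(A)+ roots, and at most 1.67e-06 FPKM in poly(A)+ shoots (log2 5.4 ± 1.45, adjusted p = 0.0221). Its root and shoot libraries overlapped because of library 3 of P- roots. In poly(A)- RNA the largest differences among those named as higher in roots and not listed at 0 in all shoots were those of TCONS_00000755 (log2 6.59, adjusted p = 0.0167) and TCONS_00057453, opposite AT5G35180 (log2 5.31, adjusted p = 0.00982). TCONS_00031133, opposite the lipid-transfer gene AT3G58550, and TCONS_00029830, opposite the kinase-like gene AT3G46280, had log2 differences of 4.32 and 4.17.

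The lncRNAs most reduced in roots lay opposite genes of lipid transfer, light harvesting and cell wall modification. TCONS_00025420, opposite the lipid-transfer protein gene AT2G45180, averaged 9.73 FPKM in roots and 780.0 FPKM in shoots (log2 -6.25 ± 0.28, adjusted p = 1.07e-05). TCONS_00016325, opposite LHCB2.2, a light-harvesting protein of photosystem II, averaged 10.4 FPKM in roots and 281 FPKM in shoots (log2 -5.78 ± 1.04, adjusted p = 0.00416). TCONS_00052878, opposite TCH4, a xyloglucan-modifying enzyme induced by touch, averaged 10.1 FPKM in roots and 410.0 FPKM in shoots (log2 -4.81 ± 0.52, adjusted p = 0.000383). The same 3 were lower in poly(A)- roots, by -5.23, -6.19 and -5.96, where TCONS_00020256, opposite PAR1, a negative regulator of shade avoidance, and TCONS_00045078, opposite the cytochrome P450 gene CYP706A1, were also lower (-4.53 and -4.24). TCONS_00008120, opposite the small GTPase gene AT1G02620, and TCONS_00044607, opposite the nucleotide-sugar transporter gene AT4G18205, were lower in poly(A)+ roots by -2.62 and -2.49.

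The lncRNA opposite LHCB2.2 also varied within the roots. Its exons at chr2:1799338-1823866 are joined by a GC-AG intron of 23617 bases and lie opposite 2 genes, LHCB2.2 and AT2G05100, a near-identical copy, so the assignment of its reads is uncertain. TCONS_00016325 had 4.85 and 0.0442 FPKM in P- and 36.3 and 0.385 FPKM in P+ poly(A)+ roots, against 162 and 90.5 FPKM in P- and 453 and 419 FPKM in P+ poly(A)+ shoots. The 6 shoot markers summed to 120.0 to 124 FPKM in P- and to 235 to 508 FPKM in P+ poly(A)+ roots. The lncRNA was higher in library 2 in both conditions. In P- the marker sums of both libraries lay within 120.0 to 124 FPKM, but single markers went both ways. CAB3 (4.06 FPKM in library 2 and 0.963 FPKM in library 3), LHCA1 and PSBP1 were higher in library 2 of P- poly(A)+ roots. RBCS1A (50.7 and 70.1 FPKM), RBCS2B and GLK1 were higher in library 3. The part of shoot marker RNA in the root values was not tested.

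The tissue difference of a lncRNA followed that of the gene opposite. Over 339 pairs in poly(A)+ RNA the log2 root minus shoot differences had the same sign in 264 (77.9%) and a Pearson r of 0.738, and over 300 pairs in poly(A)- RNA they had the same sign in 223 (74.3%) and an r of 0.712. These pairs share their libraries and their bases, and r is given as a description. Of 154 lncRNAs called by the study's rule in poly(A)+ RNA, 138 had a tested gene opposite. Of these, 127 moved in the direction of the gene, 97 had a gene called in that direction and 0 one called in the opposite direction. By the adjusted p (limma) the gene passed in the same direction for 104 and in the opposite direction for 3.

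**Figure D3:**
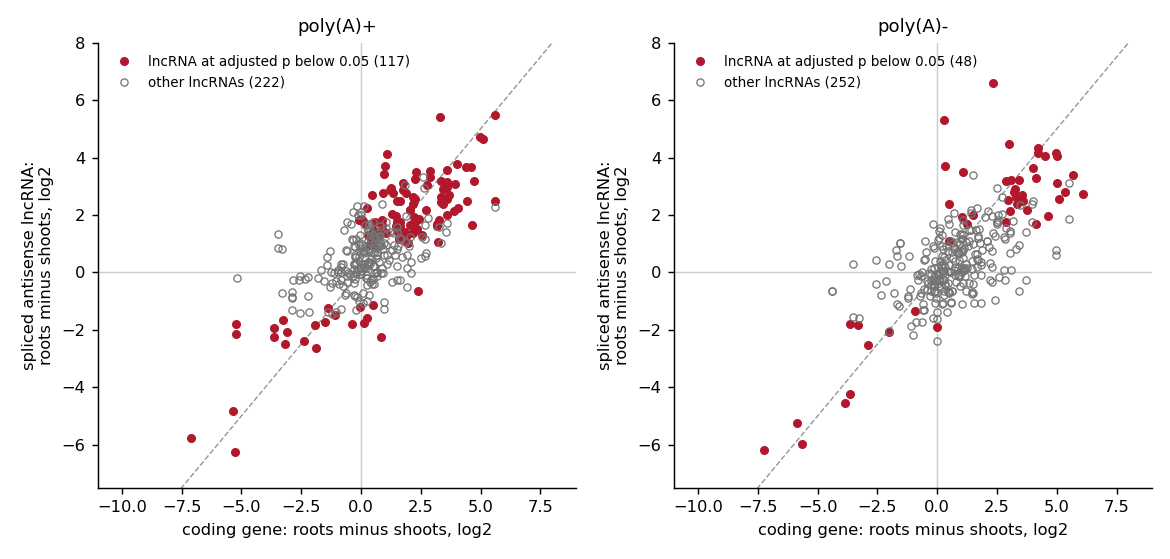
Root minus shoot log2 difference of each lncRNA (vertical) against that of the gene opposite (horizontal), in poly(A)+ RNA (left, 339 pairs) and poly(A)- RNA (right, 300 pairs), with the lncRNAs at an adjusted p of 0.05 filled. Most points lie in the quadrants where both have the same sign, 77.9% in poly(A)+ and 74.3% in poly(A)- RNA.

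Polyadenylation was described by the ratio of the poly(A)+ to the poly(A)- mean over both tissues in P+. A transcript with a ratio of 2 or more is called poly(A)+, one with a ratio of 0.5 or less poly(A)-, and the rest bimorphic. The cutoffs are those of the study, which applied them to each tissue separately. FPKM are scaled to the library, so the values of a fraction are relative to that fraction. The ratio, here and in the comparison of the fractions below, does not give the share of a transcript's molecules that carry a tail. Of 443 lncRNAs that reached 0.1 FPKM in a library, 187 (42.2%) were poly(A)+, 60 (13.5%) poly(A)- and 196 (44.2%) bimorphic. The corresponding shares were 34.3%, 19.3% and 46.4% for single-exon antisense lncRNAs, 60.5%, 17.0% and 22.4% for other newly assembled spliced lncRNAs, and 25.7%, 16.0% and 58.3% for coding transcripts. In P- the counts were 159, 90 and 193 of 442. Taken per tissue in P+, 204 were poly(A)+, 83 poly(A)- and 154 bimorphic of 441 in roots (46.3%, 18.8% and 34.9%), and 209, 91 and 115 of 415 in shoots (50.4%, 21.9% and 27.7%). Fewer lncRNAs were bimorphic within a tissue than over both tissues.

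The fractions were also compared by limma across all 16 libraries, in which 379 lncRNAs passed the filter and 66 did not. In roots 17 were higher and 8 lower in poly(A)+ than in poly(A)- RNA at the adjusted p (6.6%, where 9.67% of all transcripts passed, 6.27% higher and 3.4% lower). In shoots 21 were higher and 13 lower (8.97%, where 23.9% passed, 16.8% higher and 7.1% lower). By the study's rule they were 68 and 13 in roots (21.4%, where 17.6% of all transcripts were called, 12% higher and 5.6% lower) and 47 and 31 in shoots (20.6%, where 27.7% were called, 19.4% higher and 8.21% lower). Most mRNAs carry a poly(A) tail, whereas many small structural RNAs lack one.

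The strongest poly(A)- lncRNAs matched a known structural RNA. TCONS_00048053, which the deposited table places in RNA family RF01855, the plant signal recognition particle RNA, runs over chr5:3005360-3015237 on the plus strand with an AT-AC intron of 9431 bases. It had 92.2 and 20.1 FPKM in P- and 32.9 and 28.2 FPKM in P+ poly(A)+ roots, against 3750 and 1870 FPKM in P- and 2430 and 7410 FPKM in P+ poly(A)- roots (log2 -6.49 ± 0.54, adjusted p = 0.000124). In shoots it had 5.4 to 13.3 FPKM in poly(A)+ and 588 to 2250 FPKM in poly(A)- RNA (log2 -6.92, adjusted p = 3.21e-05). TCONS_00038204 and TCONS_00038203 of XLOC_020382 (chr4:1472728-1476735, plus strand) belong to the same family. TCONS_00038204 averaged 13.5 FPKM in poly(A)+ and 1370 FPKM in poly(A)- roots (log2 -7.27, adjusted p = 0.000371), and 10.6 and 1300 FPKM in shoots (log2 -6.88, adjusted p = 0.00016). The poly(A)- libraries of all of these lay above every poly(A)+ library of the same tissue.

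Other lncRNAs lower in poly(A)+ RNA were less abundant. TCONS_00049983, which the deposited table matches to the small nucleolar RNA snoR79, averaged 8.38 FPKM in poly(A)+ and 31.4 FPKM in poly(A)- roots (log2 -2.14, adjusted p = 0.0297). TCONS_00018651, opposite the receptor kinase gene AT2G28960, and TCONS_00016756, with no coding gene opposite, had log2 differences of -2.44 and -1.72 in roots. In shoots TCONS_00030823, opposite AGF2, an AT-hook protein of gibberellin feedback, TCONS_00024250, opposite AT2G34970, and TCONS_00016778 of XLOC_008781 had -3.08, -2.62 and -2.19. All of these passed the adjusted p.

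Several of the lncRNAs named as higher in poly(A)+ RNA had a mirrored intron. In roots 21.7% of those with and 21.3% of those without one were called by the study's rule in either direction. At the adjusted p the shares were 9.64% and 5.74%. In shoots they were 22.9% and 19.9% by the study's rule, and 7.23% and 9.46% at the adjusted p. The median log2 difference in roots was 0.571 with and 0.598 without. TCONS_00002001, opposite the thaumatin-like gene ATLP-1, had 57.2 and 176 FPKM in P- and 32.7 and 90.6 FPKM in P+ poly(A)+ roots, against 21.9 and 8.5e-05 FPKM in P- and 0.0015 and 2.86e-06 FPKM in P+ poly(A)- roots (log2 5.1 ± 1.2, adjusted p = 0.0257). Its shoots showed the same order (log2 4.35, adjusted p = 0.0237). TCONS_00007842, opposite AT1G80040, had 22.8 and 18.1 FPKM in P- and 95.1 and 4.01 FPKM in P+ poly(A)+ roots and at most 7.63e-06 FPKM in poly(A)- roots (adjusted p = 0.00622). The mirrored intron of TCONS_00007842 is GT-AG, whereas TCONS_00002001, TCONS_00015036 (log2 4.45) and TCONS_00025367, opposite AT2G44670 (4.24), have mirrored AT-AC introns, and TCONS_00031532 (4.71) has an AT-AC intron with none opposite. In shoots TCONS_00000755 (4.52), TCONS_00006038, opposite AT1G63240 (3.56), TCONS_00044607 (3.24) and TCONS_00030593 (3.17) were higher in poly(A)+ RNA at the adjusted p.

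**Figure D4:**
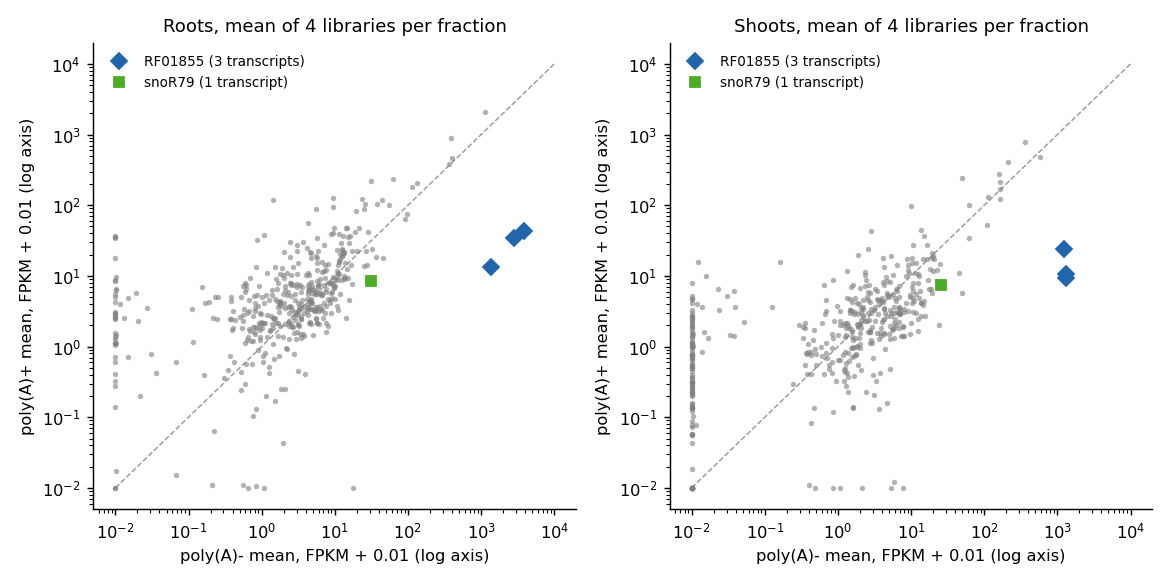
Mean FPKM (plus 0.01, log axes) of each lncRNA in poly(A)+ RNA (vertical) against poly(A)- RNA (horizontal), in roots and in shoots. The 3 transcripts of RF01855 lie far to the poly(A)- side, with TCONS_00048053 at 43.3 FPKM in poly(A)+ and 3870 FPKM in poly(A)- roots.

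The genes opposite covered several functions, and they were grouped by lists drawn up with earlier results of these data in view. With transcripts summed per gene, 4.05% of all genes and loci rose and 2.55% fell in P- poly(A)+ shoots at the adjusted p, and 2.12% rose and 1.73% fell in P- poly(A)+ roots. Of the 5 transcription factor genes, 3 rose in P- poly(A)+ shoots at the adjusted p and 0 fell, and of the 6 metabolic genes 3 rose and 0 fell. Of the 4 signalling genes, 2 rose and 1 fell in P- shoots, and 0 rose and 2 fell in P- roots, PSK4 and CBL9. Both cell wall genes rose in P- shoots, and of 3 photosynthesis genes 1 fell and 0 rose. Of 2 tested transport genes 1, PIP2A, fell in P- roots and in P- shoots (log2 -1.04, adjusted p = 0.0488 in shoots).

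The lncRNAs of these lists mostly did not pass. Those opposite the metabolic genes FBA8 (TCONS_00030537), TSA1 (TCONS_00030717), CAD1 (TCONS_00007037) and PRR2 (TCONS_00043989) had log2 differences of 1.72, 2.15, 0.9 and 1.47 in P- poly(A)+ shoots, with adjusted p of 0.176 or more. TCONS_00030537 shows the spread behind such values, with 22.1 and 3.41 FPKM in replicates 1 and 2 of P- roots and 473 and 7.12e-10 FPKM in replicates 1 and 2 of P+ roots. TCONS_00020767, opposite the auxin transporter ABCB4, was higher in roots than in shoots in poly(A)+ RNA (log2 2.71, adjusted p = 0.00145). Its differences between P- and P+ in poly(A)+ RNA were -0.11 in roots (adjusted p = 0.94) and 1.47 in shoots (adjusted p = 0.224). TCONS_00024985, opposite MIZ1, a protein needed for root hydrotropism, and TCONS_00033096, opposite the transcription factor gene AT3G12977, were likewise higher in roots (3.56 and 2.37).

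Levels of a lncRNA and its gene moved together over the 16 libraries in part of the pairs. Over 333 pairs the median Pearson r of log2(FPKM + 1) was 0.482, against 0.555 for single-exon antisense lncRNAs, and it was 0.483 with and 0.48 without a mirrored intron. In 70 pairs (21.0%) r was at least 0.7, against 32.8% for single-exon antisense lncRNAs, and in 48 pairs (14.4%) r was under 0. Among the pairs named here r was highest where tissue differences were large, with 0.97 for LHCB2.2, 0.96 for AT3G12977 and 0.95 for the extensin AT3G54580. For the differences between the 2 libraries of each group, pooled over all pairs and groups, a single Pearson r was 0.182. It is not a median over pairs. The gene was the higher of the pair in most cases, at a median of 2.74-fold (4.88-fold with a mirrored intron, 2.41-fold without), and the lncRNA was the higher one in 32 pairs (9.61%). All pairs share their libraries and the bases they overlap in, and both values depend on how the counting program divided reads between the strands.

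The Pi calls of the lncRNAs and their genes were mostly alike in direction. Of the 48 lncRNAs called by the study's rule in P- roots, 41 had a tested gene opposite, 36 had the same direction as the gene, 16 had a gene called in the same direction and 0 one called in the opposite direction. Of the 41 called in P- shoots the same numbers were 35, 24, 16 and 1. In poly(A)- RNA they were 15, 14, 2 and 0 of 16 in roots and 32, 20, 8 and 0 of 37 in shoots.

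Strand settings could be compared in shoots, where each group holds 1 unstranded and 1 first-strand library. The median log2 difference, unstranded minus first-strand, was -0.394 in P- and -0.301 in P+ poly(A)+ shoots for the lncRNAs (281 and 279 with at least 1 FPKM on average). It was -0.787 and -0.655 for those with a mirrored intron, -0.635 and -0.703 for single-exon antisense lncRNAs and 0.0397 and 0.0361 for coding transcripts. The medians in poly(A)- shoots were -0.39 in P- and -0.0579 in P+ for the lncRNAs, and -0.112 and 0.192 for those with a mirrored intron. The unstranded libraries thus gave lower values for antisense lncRNAs in poly(A)+ shoots and less clearly so in poly(A)- shoots, and the replicate and the setting cannot be told apart. All 41 lncRNAs called in P- poly(A)+ shoots had the same direction within each setting, which the rule favours, and 37 of 41 in the unstranded and 34 of 41 in the first-strand pair had a fold of at least 2.

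Loci with 5 or more spliced antisense transcripts numbered 5 and held 36 of the 445. The largest, XLOC_008781 (chr2:4477726-4484432, plus strand), has 13 transcripts of 11 to 14 exons, with GT-AG ends in nearly all introns, and lies opposite the pseudogene AT2G11240. Its summed level was 106 and 118 FPKM in P- and 161 and 102 FPKM in P+ poly(A)+ roots, and 37.0 and 49.3 FPKM in P- and 90.1 and 92.4 FPKM in P+ poly(A)+ shoots. The sum was higher in roots than in shoots (log2 0.92, adjusted p = 0.00472), and in P- shoots it differed from P+ by -1.08 ± 0.28 (adjusted p = 0.0611).

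Within the locus the leading transcript changed from library to library. In 0 of the 8 groups did the same transcript lead in both libraries, and 8 of the 13 transcripts led in at least 1 library. TCONS_00016773 made up 46.5% of the sum in library 2 of P+ poly(A)+ roots with 74.6 FPKM, against 2.95 FPKM in library 3. TCONS_00016765 fell in P- shoots, with 0.0639 and 1.11 FPKM in P- and 9.47 and 19.4 FPKM in P+ (log2 -3.29 ± 0.56, adjusted p = 0.041), and in roots it had 11.9 and 25.3 FPKM in P- and 14.2 and 9.87 FPKM in P+. TCONS_00016778 had 6.85 and 7.54 FPKM in P- and 2.25 and 1.32 FPKM in P+ roots, against 0.609 and 0.315 FPKM in P- and 4.81 and 5.09 FPKM in P+ shoots, a difference of responses of 3.61 ± 0.53 (adjusted p = 0.065). The sum of the locus had a difference of responses of 0.88 (adjusted p = 0.258).

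**Figure D5:**
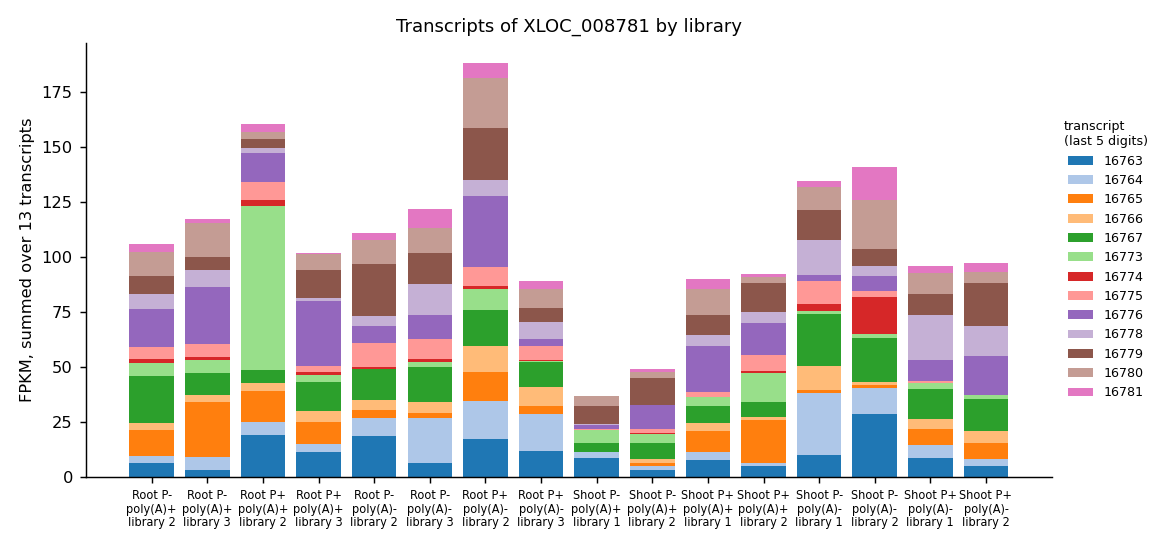
Stacked FPKM of the 13 transcripts of XLOC_008781 in each of the 16 libraries. The sums in poly(A)+ shoots were 37.0 and 49.3 FPKM in P- and 90.1 and 92.4 FPKM in P+, and the largest single share was 46.5%, TCONS_00016773 in library 2 of P+ poly(A)+ roots.

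Of the other multi-transcript loci 3 were higher in poly(A)+ roots than in shoots. XLOC_014325 (5 transcripts, chr3:4867199-4886171) runs opposite the polyprenyl synthetase genes AT3G14510, AT3G14530 and GGPS3, and 3 of its transcripts, TCONS_00027175, TCONS_00027177 and TCONS_00027179, each mirror an intron of a different gene of the array. Its sum was higher in roots by 3.32 in poly(A)+ RNA (adjusted p = 3.33e-05) and by 3.31 in poly(A)- RNA (adjusted p = 0.00329). Because these genes are near-identical neighbours, the division of reads among them is uncertain. XLOC_027357 (5 transcripts), opposite AT5G41765, was higher in roots by 2.69 (adjusted p = 0.000189), and its transcripts were listed at 0 in every P+ shoot library and at 0.563 FPKM or less in P- shoots. XLOC_013240 (8 transcripts), opposite CKX1, an enzyme that degrades cytokinin, and XLOC_009278 (5 transcripts), opposite the Rab-GAP gene AT2G19240, had a tissue difference of 0.96 (adjusted p = 0.105) and 0.74 (adjusted p = 0.0429) in poly(A)+ RNA. XLOC_009278 had the opposite sign in poly(A)- RNA (-0.8, adjusted p = 0.0952). At none of the 5 loci did the sum pass the adjusted p for P- against P+ in either tissue.

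The P1BS element, GNATATNC, is the site bound by PHR1, a main regulator of Pi starvation genes, and reads the same on both strands and was searched within 2000 bases upstream of each locus. It was found at 131 of 360 loci (36.4%), against 36.5% of single-exon antisense loci 40.9% of loci of other newly assembled spliced lncRNAs and 37.0% of 27444 protein-coding genes, and at 28.8% of loci with a mirrored intron and 38.7% without. The share was thus close to that of the other sets. A match is a description of the letters and not a site. TCONS_00025980, opposite HDG8 (chr3:755190-756291, plus strand), had 2 matches upstream of its own start, both within 300 bases and shown here on the plus strand with the element in capitals, because the study names this lncRNA among those with P1BS motifs. They lie at chr3:754890-754897 and chr3:755039-755046, 300 and 151 bases upstream.
P1BS at 300 bases upstream of TCONS_00025980: tttcaaGAATATACagattg
P1BS at 151 bases upstream of TCONS_00025980: ttttatGAATATTCttcttt
In poly(A)+ roots this lncRNA had 8.5e-06 and 12.9 FPKM in P- and was listed at 0 in both P+ libraries, and in poly(A)+ shoots it had 0.0429 and 6.41 FPKM in P- and 0 and 0.651 FPKM in P+. In each tissue 1 P- library alone carried most of the signal. HDG8 itself rose in P- shoots (log2 1.63, adjusted p = 0.0372).

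Other lncRNAs that the study names for P1BS motifs or as candidate targets of miR399, a microRNA induced by Pi starvation, were lower than TCONS_00036161 in P+ roots. TCONS_00003688 and TCONS_00003689 of XLOC_001806, with no coding gene opposite, had 0.247 and 0 FPKM and 0.211 and 0.0888 FPKM in P- roots, against 12.3 and 2.33 FPKM and 5.78 and 3.65 FPKM in P+ roots (log2 -2.57 and -2.29, adjusted p = 0.143 and 0.0676 by limma). Both were lower in every P- root library than in either P+ one. TCONS_00034635, opposite AT3G27025, had 0.421 and 1.62 FPKM in P- and 8.7 and 3.08 FPKM in P+ roots (log2 -1.7, adjusted p = 0.219). TCONS_00051302, opposite the auxin synthesis gene YUC5, had 2.96 and 1.6 FPKM in P- and 1.77 and 2.33 FPKM in P+ roots (log2 0.08, adjusted p = 0.943). TCONS_00015538 and TCONS_00015539, opposite the sulfate transporter gene AT1G78000, and TCONS_00030653, opposite AT3G53960, reached at most 7.22 FPKM in poly(A)+ RNA.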

How the data were processed

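The authors mapped the reads to TAIR10 with TopHat2, discarded organelle reads, built transcript models in Cufflinks, retained non-coding ones as newly assembled lncRNAs, and measured transcripts with eXpress. The deposited values are FPKM per transcript and library. Their DESeq2 comparison columns were not used. The coordinate table counts starts from 0 (checked on the ends of introns), and positions are printed counting from 1. Sequence was read from the same build.

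The members, gene lists and tests were chosen with earlier results of these data known. Each contrast was fitted with limma 3.58.1 (R 4.3.3, trended prior) on log2(FPKM + 1) over transcripts averaging at least 1 FPKM: 8 libraries of a fraction (27395 or 27497 transcripts) or all 16 (28002), with 1 mean per group. Genes and loci were summed and fitted in the same way. Calls used a fold of 2 with an unadjusted p of 0.05, or a Benjamini-Hochberg adjusted p of 0.05. Steps were tested on simulated data in which 200 transcripts with a mean log2(FPKM + 1) above 2 were changed by a log2 of 2. At the adjusted p, 23.0% and 28.0% of these were recovered for Pi in poly(A)+ roots and shoots. For tissue 74.5% were recovered in poly(A)+ and 25.5% in poly(A)- RNA, and for the fractions 50.5% in roots and 53.5% in shoots. In the real data far more than 200 transcripts passed for tissue and for the fractions, so these rates need not hold there. For Pi in poly(A)- roots and shoots and for the difference of the responses 0% were recovered, so that 0 calls there do not show absence. Python 3.11.15 with pandas 2.3.3 and numpy 2.4.6 was used otherwise, and figures were drawn with matplotlib 3.10.9.

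Named lncRNAs are, for each contrast and direction, up to 5 with the largest log2 difference at the adjusted p and at least 2 FPKM in the higher group, 1 per locus, filled from those past the study's rule whose libraries did not overlap. Added to these are the lncRNAs the study names for P1BS motifs and miR399, loci of 5 or more transcripts, and the 5 highest with a mirrored intron. The remaining lncRNAs named for an example (TCONS_00000003, TCONS_00022196 and those of the gene lists) were chosen after their values were seen. Alternatives were other added constants, filters, rescaled libraries, summed loci, separate tissues, a replicate block and leaving out each library.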

Additional observations from a re-analysis of the deposited data

Results flagged for a closer look

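TCONS_00028233, opposite the tetratricopeptide repeat gene AT3G23020, differed in opposite directions between the tissues in poly(A)- RNA. In roots it had 5.07 and 3.07 FPKM in P- and 0.115 and 0.294 FPKM in P+, a log2 difference of 2.05 (adjusted p = 0.56, limma). In shoots it had 0 and 2.09 FPKM in P- and 18.2 and 11.7 FPKM in P+, a log2 difference of -3.15 (adjusted p = 0.154). Every P- library lay above the P+ libraries in roots and under them in shoots. Whether the responses of the 2 tissues differ was not tested in this fraction. AT3G23020 had a log2 difference of -2.76 in poly(A)- shoots (adjusted p = 0.0693).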

How the results depend on the processing

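Counts below are of lncRNAs called by the study's rule, or at the adjusted p where said. A percent in square brackets is the share of all transcripts called by the same rule in the same setting. With 5 FPKM added before the log, they were 30 [7.0%] for Pi in poly(A)+ roots (1 [1.55%] adjusted) and 14 [7.02%] in poly(A)+ shoots. For the difference of the responses 2 [0.434%] passed the adjusted p. They were 73 [24.9%] and 51 [26.4%] for roots against shoots in poly(A)+ and poly(A)-. For the fractions they were 50 [9.76%] in roots and 27 [16.4%] in shoots. With a mean of at least 5 FPKM they were 23 [12.2%] (1 [1.82%] adjusted) and 21 [14.5%] for Pi in poly(A)+ roots and shoots. They were 15 [16.7%] for the difference of the responses and 81 [38.6%] (74 [47.1%] adjusted) for tissue in poly(A)+. For Pi in poly(A)- they were 5 [6.69%] in roots and 19 [12.6%] (1 [0.472%] adjusted) in shoots. For tissue in poly(A)- they were 46 [38.3%] (35 [35.8%] adjusted). For the fractions they were 39 [18.7%] (13 [13.1%] adjusted) in roots and 40 [29.9%] (22 [29.8%] adjusted) in shoots. This filter left fewer lncRNAs to test, 164 in poly(A)+, 139 in poly(A)- and 150 over all libraries. With 0.1 FPKM added, the adjusted counts were 1 [0.869%] and 3 [2.05%] for Pi in poly(A)+ roots and shoots. They were 1 [0.266%] for the difference and 2 [1.03%] for poly(A)- shoots. Without a filter they were 4 [1.16%] for poly(A)+ roots, 2 [0.185%] for poly(A)- roots (29 [6.71%] by the study's rule) and 1 [0.314%] for poly(A)- shoots. Summed per locus, the share in brackets is over all genes and loci. The adjusted counts were 9 [3.85%], 12 [6.6%] and 4 [2.62%] for Pi in poly(A)+ roots, shoots and their difference. They were 3 [0.896%] for poly(A)- shoots and 40 [15.7%] for the fractions in roots. With the groups of a tissue fitted alone, 0 [0.0112%] and 15 [9.83%] passed the adjusted p in poly(A)+ roots and shoots. In poly(A)- roots and shoots 25 [7.85%] and 24 [9.18%] passed the study's rule. A ratio of 4 gave 124 poly(A)+, 24 poly(A)- and 295 bimorphic lncRNAs, and mirrored ends within 2 bases left 8. The cause of the other shifts was not tested.

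With the replicate block in shoots, 60 [17.2%] (26 [15.8%] adjusted) were called for Pi in poly(A)+ and 24 [9.27%] in poly(A)-. For the fractions 70 [28.2%] (47 [25.3%] adjusted) were called. Deviations of same-numbered P- and P+ shoot libraries correlated at 0.158 in poly(A)+ and 0.0423 in poly(A)-, and those of the 2 fractions at 0.0595 in P- and 0.073 in P+, 2 pairs each. In shoots a number goes with a strand setting in the labels, which name no shared batch or day.

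Leaving out 1 library gave 37 to 117 (0 to 41 adjusted) for Pi in poly(A)+ roots, 27 to 48 (0 to 11) in shoots, 26 to 98 (0 to 17) for the difference, 125 to 186 (87 to 174) for tissue in poly(A)+, 16 to 29 (0) and 28 to 51 (0) for Pi in poly(A)- roots and shoots, 75 to 87 (39 to 50) for tissue in poly(A)-, and 64 to 107 (9 to 46) and 56 to 81 (19 to 41) for the fractions. The lone library left in a group is then assumed to vary like the others. Without library 3 of P+ poly(A)+ roots more of all transcripts were also called for Pi in roots and for the difference of the responses. Of the named values, 483 of 534 kept their call under the other settings and 597 of 798 with a library left out, and 0 reversed. Only 38 of the 80 named values kept their call in every case of a library left out. With 2 libraries per group and unknown depth, a difference that missed the threshold is not shown to be absent.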
